A study of Mus musculus with 15 samples.

Results

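The cytosolic ribosomal protein genes were described in group 2 innate lymphoid cells (ILC2s) of the mouse lung, on arrays of naive adults, effector adults and neonates. The members were the genes whose symbol begins with Rpl, Rps or Rplp followed by a digit and that had an array feature (a probe set read out as 1 value) carrying their symbol alone, with the Rps6k kinases and the pseudogenes left out. This gave 68 of the 22180 genes with such a feature. They were 22 proteins of the small subunit, 32 of the large subunit, the 3 stalk proteins Rplp0, Rplp1 and Rplp2, 9 paralogs of subunit genes, and Rps19bp1 and Rps23rg1, which match the name but are not subunits. The rule used names, not measured values.

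The 15 arrays formed 5 groups of 3 biological replicates, each measuring total RNA from lung ILC2s. Naive adults, female and male, were 8 weeks old and untreated. Effector adults, female and male, had received the alarmin IL-33 into the nose on 3 consecutive days, with cells taken 1 day after the last dose; the labels give no age for them beyond adult. Neonates were 10 days old and untreated, with sex not given. No strain or genetic change is named in the labels, and neither the mice pooled per replicate nor the sorting gate is given. No group received the vehicle alone, so effects of dosing and of IL-33 cannot be told apart, and in neonates age cannot be told apart from anything else that differed between neonates and adults.

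The small subunit of the cytosolic ribosome reads the messenger RNA, the large subunit joins amino acids, and the stalk recruits the elongation factors. Each core protein is present once per ribosome, apart from the stalk proteins P1 and P2, and the genes are among the most highly transcribed of a growing cell. Their messenger RNAs begin with a 5′ terminal oligopyrimidine (TOP) tract, a C followed by pyrimidines, through which the kinase complex mTORC1 controls how much of the messenger RNA is translated. An array measures the amount of the messenger RNA and does not see that control. ILC2s answer IL-33 by dividing and by secreting cytokines, and dividing cells make new ribosomes.

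The tract is the sequence feature for which this family is known, so the annotated start is shown for 3 members that have it, Rps6, Rpl28 and Rpl15, and for Rps27l, Rpl34 and Rpl22l1, the largest rises and the one fall between naive and effector adults, where no tract begins exactly at the annotated start although one lies within 10 bases of it. Each line has 15 bases before the start and 15 from it, from the RefSeq promoter table (GRCm38.p6). Capitals mark the tract, or the start base alone where no tract begins there.
Rps6: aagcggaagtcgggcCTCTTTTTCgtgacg
Rpl28: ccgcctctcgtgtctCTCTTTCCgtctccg
Rpl15: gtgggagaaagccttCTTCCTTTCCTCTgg
Rps27l: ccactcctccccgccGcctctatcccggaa
Rpl34: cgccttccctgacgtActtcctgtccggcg
Rpl22l1: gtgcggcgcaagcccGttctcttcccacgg
The windows lie at chr4:86857353-86857382 on the minus strand (Rps6), chr7:4792950-4792979 on the plus strand (Rpl28), chr14:18270972-18271001 on the minus strand (Rpl15), chr9:66946071-66946100 on the plus strand (Rps27l), chr3:130730384-130730413 on the minus strand (Rpl34) and chr3:28805493-28805522 on the plus strand (Rpl22l1). For Rps27l and Rpl34 1 of 2 entries is shown. The windows span the upstream flank and the first bases of the 5′ UTR.

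The table held 62 entries for 53 of the 68 members. A C followed by at least 4 of C or T, searched on the transcribed strand, began exactly at the annotated start in 11 of these entries (17.7%), against 823 of all 32851 entries (2.51%). Within 10 bases of the start it was found in 34 member entries (54.8%) and in 30.7% of all entries. The members with a tract exactly at the start were Rpl14, Rpl15, Rpl28, Rpl32l, Rpl35, Rpl38, Rplp2, Rps10, Rps18, Rps27 and Rps6. Such matches describe the letters in this window and the start chosen by the annotation.

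Of the 68 members, 27 had a mean log2 level of 10 or more (called upper here), 29 lay between that and the dim range, and 12 lay in the dim range. The dim range ends at 4.90, the level below which 95% of 1400 features for odorant and vomeronasal receptors lay over all arrays. These classes were set after the levels had been seen. Log2 levels show a feature's signal and cannot be compared between genes as amounts of RNA, because probes differ.

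The features with the highest signal were those of Rplp1 (13.16), Rps6 (12.95), Rpl19 (12.67), Rpl41 (12.66), Rps12 (12.61), Rpl4 (12.57) and Rps3a1 (12.22), all as log2 means over 15 arrays. The brightest feature of any kind on an array reached 13.40 to 14.03. The RMA values carry no saturation flag. Upper members also had little spread between replicates. Their median SD within a group was 0.049 to 0.082 log2, against 0.17 to 0.28 for members of the middle class.

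At the other end, the 12 members in the dim range were Rpl27a, Rpl30, Rpl37, Rps15, Rps16, Rps29, Rplp2, Rpl10l, Rpl22l1, Rpl32l, Rpl3l and Rps23rg1. Of these, Rps15 (3.64), Rpl30 (3.29), Rpl3l (3.74), Rpl10l (2.22) and Rpl32l (1.90) lay below the filter for low values and were not tested. Rpl3l, Rpl10l and Rpl32l are paralogs, and Rpl3l and Rpl10l are known from striated muscle and testis. Rps15 and Rpl30 are core subunits that every ribosome contains, so their low signal describes the feature and does not show that the messenger RNA is scarce. Of the 41 members in the dim and middle classes, 6 (Rpl27a, Rpl30, Rpl34, Rpl37a, Rps16 and Rps27) also appear on a feature that carries several gene symbols and has a level of 10 or more.

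**Figure D1:**
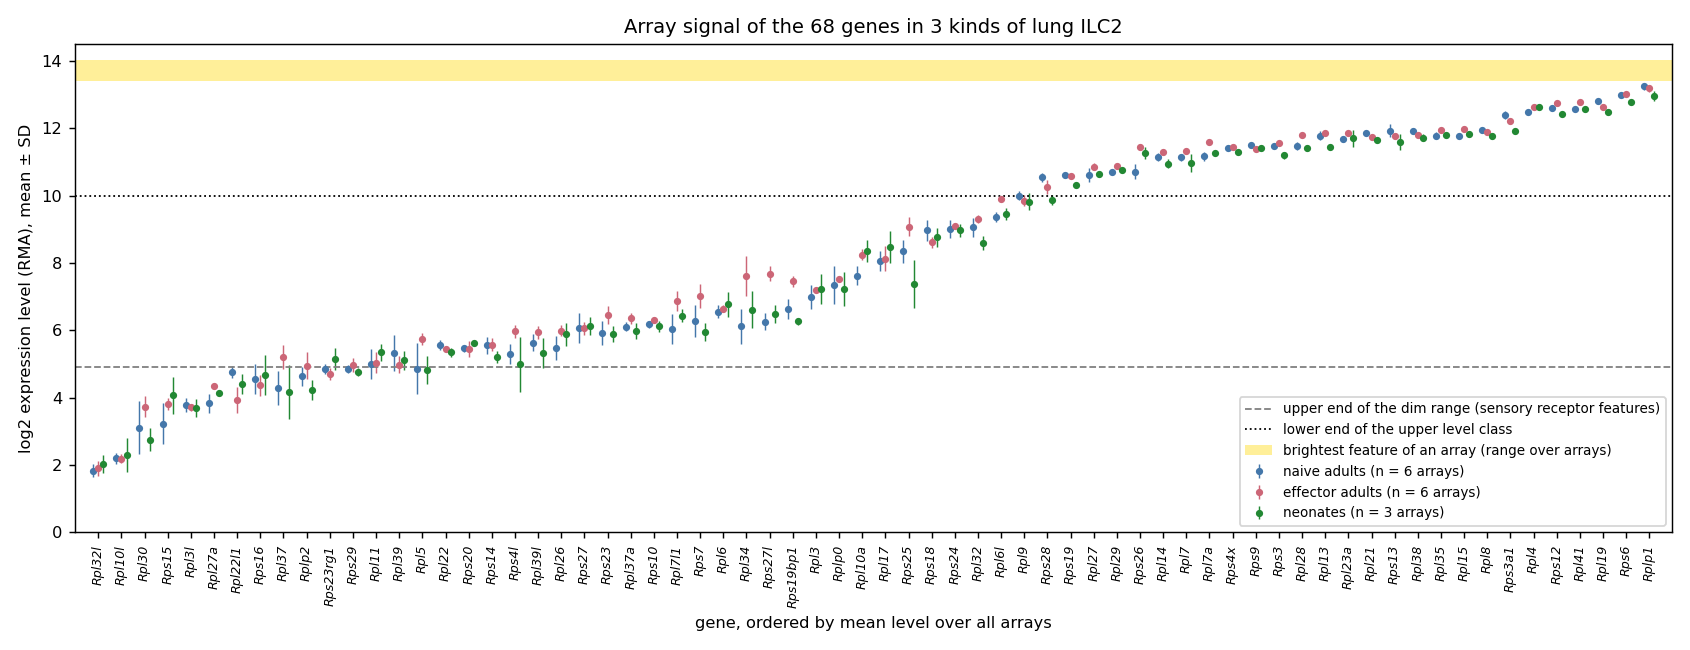
Mean log2 level ± SD of each of the 68 genes (x axis, ordered by mean over all arrays) in naive adults (blue, n = 6 arrays), effector adults (red, n = 6) and neonates (green, n = 3). The dashed line is the end of the dim range (4.90), the dotted line marks level 10, and the yellow band is the brightest feature of each array (13.40 to 14.03); the 27 upper genes sit close together in the 3 groups while genes between levels 4 and 9 spread more.

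Effector and naive adults were compared to ask how IL-33 exposure changes adult ILC2s. Among the 63 members tested, 17 were higher in effector than in naive adults and 1 was lower, at an adjusted p under 0.05 in limma over all 16257 genes. That is 28.6% of the members, against 34.6% of all genes tested (23.7% higher and 10.9% lower). The median difference over the members was 0.15 log2, and over all genes 0.03. After centring each array on its median, the median over all genes moved to 0.17. The share of higher genes among those called went from 68.5% to 83%, and 28 members were called higher. The share of all genes called after centring is not given here, so the 28 does not show a change particular to the members. The most changed members were the large subunit gene Rpl34, 2.81-fold higher, and the paralog Rps27l, 2.70-fold higher. Of the 63 members, 11 (17.5%) were called and had groups of arrays that did not overlap, against 19.4% of all genes.

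By level, 3 of the 27 upper members were called, against 46.4% of all genes with a level of 10 or more. Among members of the middle class 12 of 29 were called (43.8% of all such genes), and among those in the dim range 3 of 7 (18.5% of all such genes). The brightest genes of any kind moved little. Of 22 genes tested with a level above 12, 7 of them members, 4.55% were called, with a median size of difference of 0.125 log2, while among genes with a level of 7 to 8 it was 0.444. The part of the signal level in the small differences at the top was not tested.

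Small subunit genes gave 4 higher and 0 lower of 21 tested, with a median difference of 0.02. That is 19% called, against 34.6% of all genes. Rps26, a small subunit protein at the exit of the messenger RNA channel, read 10.96, 10.75 and 10.93 in naive females and 10.53, 10.40 and 10.65 in naive males. In effector adults it read 11.48, 11.44 and 11.39 in females and 11.59, 11.30 and 11.44 in males. All 6 effector arrays lay above all 6 naive arrays. The difference was 0.73 ± 0.11 log2 (SE of the fit to all 15 arrays; limma adjusted p = 0.000102), or 1.66-fold. Rps26 was the only upper small subunit gene called.

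Rps25, which lies on the head of the small subunit and is known for its part in internal ribosome entry, averaged 8.34 ± 0.33 in naive adults and 9.07 ± 0.28 in effector adults (SD, n = 6 arrays each). It was higher by 0.73 ± 0.21 (SE; limma adjusted p = 0.0137), with overlap between the groups. Rps7, a protein that also binds the p53 inhibitor Mdm2, was higher by 0.75 ± 0.21 (SE; limma adjusted p = 0.0116), and Rps23, at the decoding site, by 0.53. Rps7 was not called after a further quantile normalization (0.59, limma adjusted p = 0.0544). By contrast Rps6, the substrate of the S6 kinases downstream of mTORC1, had nearly the same value on every adult array, from 12.96 to 13.01 in naive and from 12.95 to 13.06 in effector adults. Its difference was 0.02, with a 95% interval of -0.17 to 0.21. Rps19, Rps4x and Rps27 differed by -0.02, 0.04 and 0.00 and were not called.

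Large subunit genes gave 8 higher and 0 lower of 31 tested, with a median difference of 0.19. That is 25.8% called, against 34.6% of all genes. Rpl34, a large subunit protein, read 6.02, 5.87 and 6.26 in naive females and 6.98, 5.42 and 6.19 in naive males. In effector adults it read 7.03, 7.53 and 7.05 in females and 7.40, 8.40 and 8.26 in males. The groups did not overlap, although the highest naive male array came within 0.1 of the lowest effector array. The difference was 1.49 ± 0.26 (SE; limma adjusted p = 0.000388), and it stayed called under all 25 alternatives tried. Those alternatives used features with the symbol Rpl34 alone. A much brighter feature, shared by Rpl34 and its pseudogene Rpl34-ps1 (level 11.93), differed by 0.00 (limma adjusted p = 0.993 in the fit over features).

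Rpl5, which with Rpl11 and 5S RNA forms the particle that binds Mdm2, ranged from 3.97 to 5.98 in naive adults with a median of 4.94, and from 5.52 to 6.05 in effector adults with a median of 5.72. It was higher by 0.87 ± 0.20 (SE; limma adjusted p = 0.00366), and its naive mean lay within the naive dim range. Its partner Rpl11 differed by 0.04, with a 95% interval of -0.39 to 0.46, and was not called. Rpl37 was higher by 0.92 and Rpl27a by 0.53. Both means in naive adults were in the dim range, and the effector mean of Rpl27a was as well. A much brighter feature shared by Rpl27a and Gm13981 (level 11.51) differed by 0.16 (limma adjusted p = 0.174 in the fit over features). Another, shared with Snora3 too (level 7.77), differed by -0.25 (limma adjusted p = 0.42). Rpl10a, a protein of the L1 stalk, was higher by 0.62, a call lost after a further quantile normalization (0.43, limma adjusted p = 0.0562). Rpl26 (0.51), Rpl7a (0.44) and Rpl28 (0.32) completed the list. Rpl26 lost its call without naive male replicate 3, naive female replicate 2, effector female replicate 1 or effector male replicate 3 (0.40 to 0.50, limma adjusted p from 0.0536 to 0.0724). Rpl7a and Rpl28 are the 2 upper large subunit genes that were called, and for both the 6 effector arrays lay above the 6 naive arrays. Rpl22, an RNA-binding subunit known for its part in lymphocyte development, differed by -0.12 and was not called.

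None of the 3 stalk genes was called in this comparison (34.6% of all genes were). An unadjusted p under 0.05 was found for 0 of them, and for 7198 of all 16257 genes. Rplp1, which carries elongation factors to the ribosome together with Rplp2, averaged 13.25 ± 0.10 in naive and 13.18 ± 0.09 in effector adults (SD, n = 6 arrays each). Rplp0, the base of the stalk, differed by 0.17 and Rplp2 by 0.32.

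Paralogs, which can replace or accompany a core protein, gave 4 higher and 1 lower of the 6 tested, with a median of 0.61. Of all genes 34.6% were called, and of genes in the middle level class 43.8%. A set of 6 genes is small for such a share. Rps27l, a paralog of Rps27 known as a p53 target, read 6.14, 6.38 and 6.62 in naive females, 6.28, 5.86 and 6.24 in naive males, 7.51, 7.87 and 7.36 in effector females and 7.60, 7.79 and 7.96 in effector males. Every effector array was above every naive array. The difference was 1.43 ± 0.14 (SE; limma adjusted p = 2.37e-06), 2.70-fold, while Rps27 itself had means of 6.06 in both groups. A brighter feature shared by Rps27 and Rps27rt (level 11.26) fell by 0.78 (limma adjusted p = 0.000105 in the fit over features). Rpl7l1, which is known from the assembly of the large subunit in the nucleolus, averaged 6.03 ± 0.44 in naive and 6.87 ± 0.30 in effector adults (SD, n = 6 arrays each), again without overlap. It was higher by 0.84 ± 0.19 (SE; limma adjusted p = 0.00258).

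Rpl22l1, the paralog of Rpl22, was the single member that was lower. It ranged from 4.46 to 4.95 in naive adults with a median of 4.78, and from 3.55 to 4.64 in effector adults with a median of 3.81. The effector female array at 4.64 overlapped the naive arrays. A second member was called lower without naive male replicate 1 or naive female replicate 3 (2 in all). Rpl22l1 fell by 0.84 log2 (SE 0.17; limma adjusted p = 0.00118). Both means lay in the dim range of their own group, which ended at 5.46 in naive and at 4.63 in effector adults, and over all genes in the dim class 799 were lower and 297 higher. Their part in the result was not tested. Rpl6l was higher by 0.55, without overlap. Rps4l was higher by 0.67, but was no longer called after leaving out any 1 of 8 adult arrays (differences of 0.60 to 0.67, limma adjusted p from 0.0556 to 0.0702). These arrays were naive male replicates 2 and 3, naive female replicates 1 and 2, effector female replicates 1 and 2, and effector male replicates 1 and 3. Rpl39l differed by 0.30 and was not called. Of the name matches, Rps19bp1, which binds Rps19, was higher by 0.82 and Rps23rg1 differed by -0.16 without a call.

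**Figure D2:**
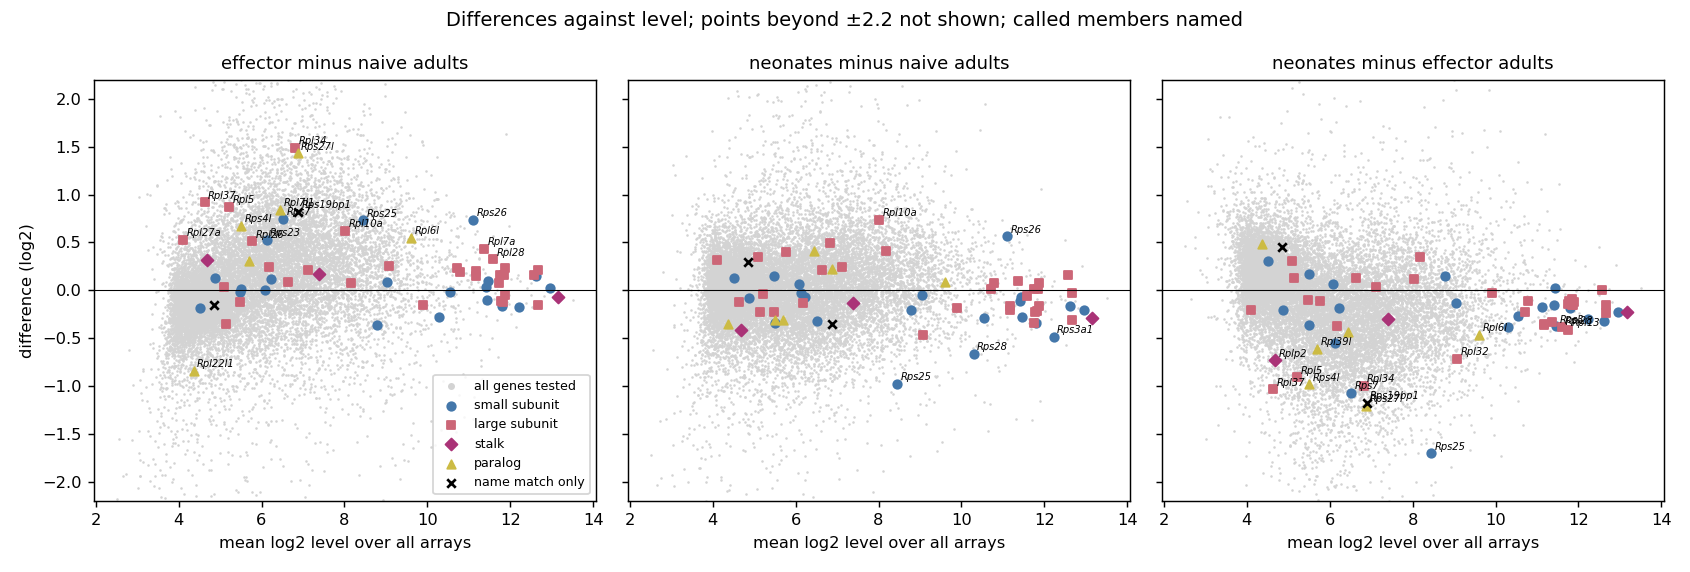
Difference in log2 level (y axis) against mean log2 level over all arrays (x axis) for all genes tested (grey) and the 63 genes of the family tested (coloured by role), in 3 comparisons; the names are those called in limma at an adjusted p under 0.05. In effector minus naive adults the called genes lie mostly at levels 4 to 9, with Rps26, Rpl7a and Rpl28 the called genes above level 10; in neonates minus effector adults 49 of the 63 points lie below 0.

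The sexes were compared within the adult groups. In females 4 members were called between effector and naive adults (14% of all genes), namely Rpl34, Rps26, Rps27l and Rps19bp1, and in males 17 (24.9% of all genes). The female count was 1 without naive female replicate 2, effector female replicate 2 or effector female replicate 3, and 2 without naive female replicate 3 or effector female replicate 1. The difference between these responses was tested directly, and 0 members (0% of all genes) were called in limma. An unadjusted p under 0.05 was found for 3 of 63 members and for 866 of all 16257 genes. Rpl5 had the widest gap, 0.34 in females and 1.40 in males, with an unadjusted p of 0.0196 and a limma adjusted p of 0.867. Its naive female arrays (5.01, 5.25 and 5.98) all lay above its naive male arrays (3.97, 4.87 and 4.11). No member was called between females and males, in naive adults (0.209% of all genes) or in effector adults (0.0308%). In naive adults 8 of 63 members had an unadjusted p under 0.05, beside 1614 of all 16257 genes. In effector adults 1 member did, beside 332 of all genes.

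Neonates and naive adults were compared to ask how untreated ILC2s differ with age. Of the 63 members, 2 were higher in neonates and 3 lower, or 7.94% against 10.2% of all genes (6.04% higher and 4.12% lower). The median over the members was -0.12 log2 and over all genes 0.02; without neonate replicate 2 it was -0.04 over the members. Of the 63 members, 5 (7.94%) were called and had groups that did not overlap, against 7.44% of all genes. Since the same 6 naive arrays enter the comparison with effector adults, the values are given side by side and the comparisons are not independent.

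Rps26 read 11.38, 11.05 and 11.37 in neonates, all above the 6 naive adult arrays, and was higher by 0.56 ± 0.13 (SE; limma adjusted p = 0.0142), beside 0.73 in effector adults. Rpl10a read 7.99, 8.57 and 8.52, above the highest naive adult array at 7.95, and was higher by 0.74 ± 0.18 (SE; limma adjusted p = 0.0172), beside 0.62 in effector adults. Rps26 lost its call without neonate replicate 1 (0.51, limma adjusted p = 0.0622). Rpl10a lost its call without neonate replicate 2 (0.63, adjusted p = 0.0676) or 3 (0.65, adjusted p = 0.0601).

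The 3 members lower in neonates were all small subunit genes. Rps25 read 7.90, 6.56 and 7.65 in neonates, below all naive adult arrays (8.05 to 8.85), and replicate 2 was the lowest. It fell by 0.97 log2 (SE 0.26; limma adjusted p = 0.0257), whereas in effector adults it was higher. Its call was lost without neonate replicate 2 (-0.57, limma adjusted p = 0.11) and without naive female replicate 1 (-0.91, limma adjusted p = 0.0535). Rps28, a small subunit protein near the messenger RNA exit, read 9.99, 9.69 and 9.94 in neonates against 10.39 to 10.77 in naive adults, and fell by 0.67 (SE 0.15; limma adjusted p = 0.0103). A second, dim feature of Rps28 (level 4.50) differed by 0.28 (limma adjusted p = 0.546), and with the mean of both features Rps28 was not called (-0.19, limma adjusted p = 0.496). Rps3a1, near the binding site of initiation factor eIF3, read 11.92, 11.85 and 11.95 against 12.16 to 12.50, and fell by 0.48 (SE 0.12; limma adjusted p = 0.019).

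Of the 27 upper members 3 were called (21.7% of all genes with a level of 10 or more). Of these 27, 19 had a difference below 0, and 18 did after centring each array. Of the 10 upper small subunit genes, 9 had a difference below 0 in neonates, with a median of -0.24. Of the 16 upper large subunit genes, 9 did, with a median of -0.04 and 0 called. An unadjusted p under 0.05 was found for 2 of them, and for 108 of all 263 genes with a level of 10 or more. The gap between the subunits was not tested. The median signal of the upper core genes on an array averaged 11.54 ± 0.09 in neonates (SD, n = 3 arrays), against 11.77 ± 0.05 in naive females and 11.68 ± 0.05 in naive males. Rps6 and Rps19 were lower on all 3 neonatal arrays than on any naive adult array, by 0.21 and 0.29, and did not pass the test in limma (adjusted p = 0.26 and 0.113). Rplp1 was likewise lower without overlap, by 0.29, and was not called (adjusted p = 0.15). With a trended and robust prior in limma, Rps6 (adjusted p = 0.00665), Rps19 (adjusted p = 0.0183) and Rplp1 (adjusted p = 0.00986) were called lower. The share of all genes called under that prior is not given here. No paralog was called. Rps27l differed by 0.22 with a 95% interval of -0.15 to 0.60, and Rpl34 by 0.49 with an interval of -0.18 to 1.16. The brighter feature shared by Rpl34 and Rpl34-ps1 (level 11.93) fell by 0.41 (limma adjusted p = 0.0338 in the fit over features).

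The neonatal calls depended on few arrays. Leaving out the 3 arrays that correlated least with the others (naive male replicates 1 and 2 and neonate replicate 2) left 1 member called higher and 0 lower. Rps26 kept its call (0.61, limma adjusted p = 0.0344), and Rps25 (-0.55, adjusted p = 0.213), Rps28 (-0.55, adjusted p = 0.103), Rps3a1 (-0.44, adjusted p = 0.105) and Rpl10a (0.68, adjusted p = 0.0658) lost theirs. None of the 5 was called with array weights (limma adjusted p from 0.0571 to 0.113). Rps26 also lost its call with the mean of its features (0.49, limma adjusted p = 0.0872).

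**Figure D3:**
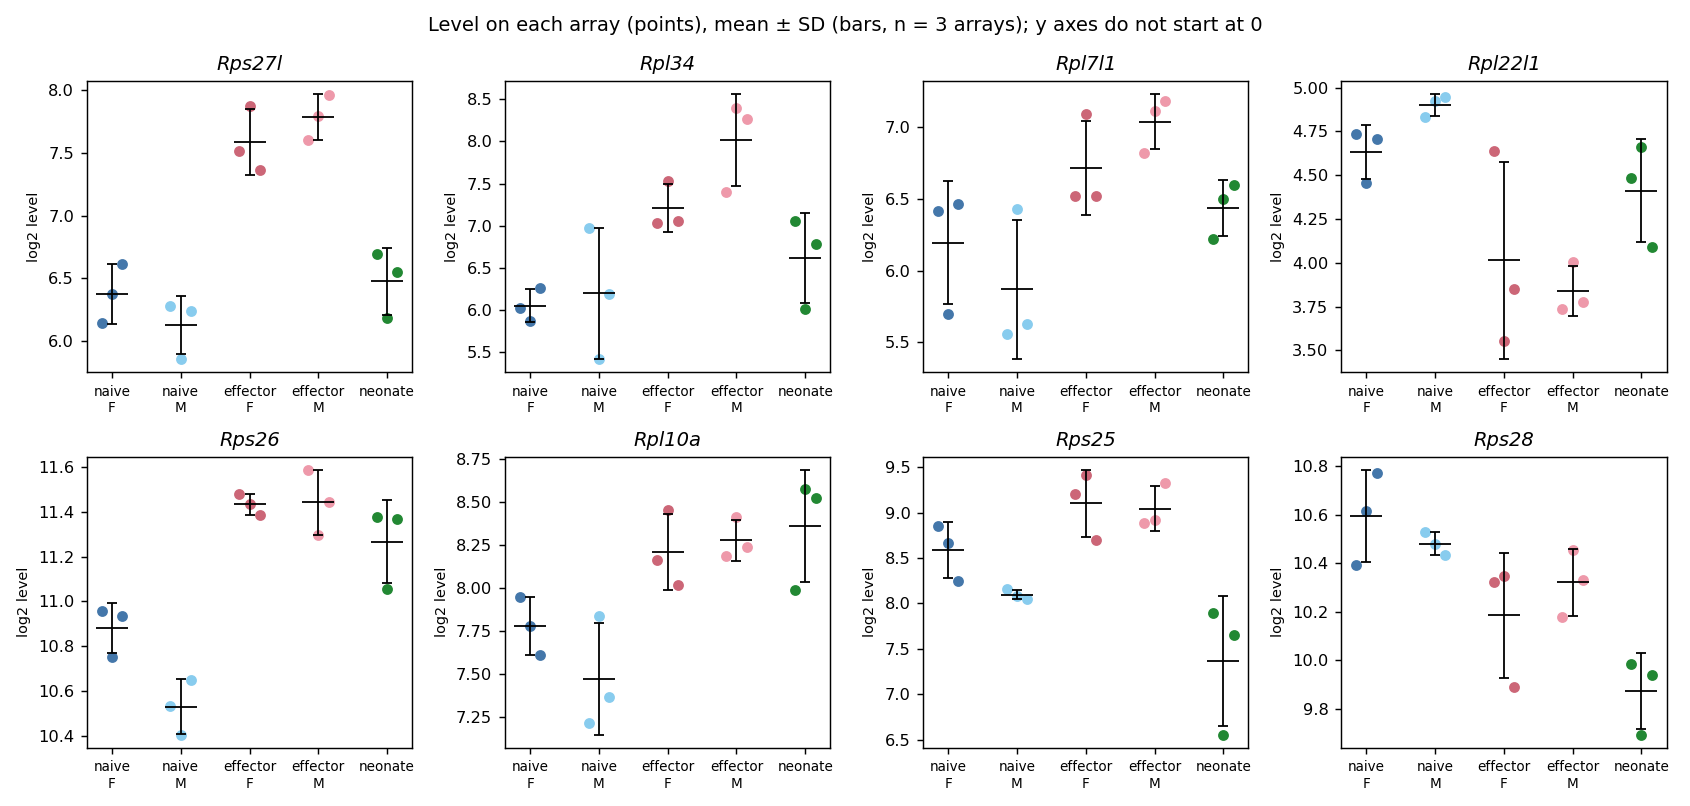
Log2 level on each array (points) with mean ± SD (bars, n = 3 arrays) for 8 genes in naive females and males, effector females and males, and neonates; the y axes do not start at 0. Rps27l, Rpl34 and Rpl7l1 were higher on all effector than on all naive arrays, Rps26 and Rpl10a were higher in both effector adults and neonates than in naive adults, and Rps25 and Rps28 were lowest in neonates.

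Against effector adults, 15 members were lower in neonates and 0 higher, or 23.8% against 20.6% of all genes (5.93% higher and 14.7% lower). In either direction 27 of the 63 members had an unadjusted p under 0.05, beside 5579 of all 16257 genes. Without effector female replicate 1, Rpl22l1 was called higher in neonates (0.64, limma adjusted p = 0.0155), and without neonate replicate 3 Rps23rg1 was (0.64, limma adjusted p = 0.015). The median was -0.21 log2, and over all genes -0.03. Centring each array moved the latter to -0.14, lowered the share of higher genes among those called from 28.8% to 16.4%, and gave 24 lower members. Without the share of all genes called after centring, which is not given here, the 24 does not show a change particular to the members. Rps25 fell by 1.70 (SE 0.26; limma adjusted p = 0.00039), or 3.26-fold, and each neonatal array was below each effector array. Rps27l fell by 1.21, Rps19bp1 by 1.18 and Rps7 by 1.07. Among large subunit genes Rpl37, Rpl34, Rpl5, Rpl32, Rpl13 and Rpl28 were lower, from -1.04 for Rpl37 to -0.39 for Rpl28. Rps3 (-0.38), the stalk gene Rplp2 (-0.73) and the paralogs Rps4l (-0.98), Rpl39l (-0.61) and Rpl6l (-0.46) were lower too. The neonatal means of Rpl37, Rpl5 and Rplp2 lay in the neonatal dim range, which ended at 4.88. The count of lower members was 7 without neonate replicate 2 and 9 without effector female replicate 2.

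Several of these calls were lost when 1 array was left out, some of them for many different arrays and with little change in the difference. Without neonate replicate 2, Rpl34 (-0.70), Rpl37 (-0.67), Rplp2 (-0.68), Rpl5 (-0.92), Rpl6l (-0.36), Rps4l (-0.52), Rpl28 (-0.35) and Rps3 (-0.35) were not called, with limma adjusted p from 0.056 for Rpl5 to 0.202 for Rpl34. Without neonate replicate 1, Rpl5 (-0.70), Rpl37 (-0.99), Rplp2 (-0.62), Rpl39l (-0.36), Rpl13 (-0.41) and Rpl28 (-0.37) were not called. Rpl37 and Rplp2 also lost their calls without effector female replicate 2 (-0.98 and -0.63) or effector male replicate 3 (-0.94 and -0.66). Rpl34 lost its call without effector female replicate 2 or 3, effector male replicate 2 or 3, or neonate replicate 3 (-1.08 to -0.90). Rpl39l lost its call without naive female replicate 2, any effector female replicate, or effector male replicate 1 or 2 (-0.64 to -0.56). Rpl28 lost its call also without effector female replicate 2 or 3 or effector male replicate 1 or 2 (-0.39 to -0.38). Rps3 lost its call also without effector female replicate 2 or 3, any effector male replicate or neonate replicate 3 (-0.39 to -0.35). Rps25, Rps27l, Rps19bp1, Rps7 and Rpl32 kept theirs without any 1 array.

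Several genes of the family had more than 1 feature, and these did not always move alike. In a fit over features, comparing effector with naive adults, the 63 features used for the genes gave 16 higher and 1 lower. The 38 further features with 1 member symbol gave 13 higher and 2 lower, and 57 features shared with other symbols gave 7 higher and 7 lower, where 28.4% of all 28958 features were called (16.2% higher). For Rps24, a small subunit gene with known alternative 3′ exons, the feature used (level 9.04) differed by 0.09, while a second one (level 8.13) was higher by 1.64 ± 0.22 (SE; limma adjusted p = 0.000143). For Rpl29 the feature used differed by 0.19 and the second was higher by 1.55 ± 0.26 (SE; limma adjusted p = 0.000824).

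Rpl41, which encodes a very short subunit protein, had 5 features. The brightest (12.66) differed by 0.21 without a call, and the other 4 were higher by 0.28, 0.31, 0.39 and 1.28. The second feature of Rps26 was higher by 1.42, the same direction as the one used. Rpl4 went the other way, with 0.16 for the feature used and a call in the opposite direction for a dimmer one, which fell by 0.85 (SE 0.16; limma adjusted p = 0.00159). The second feature of Rplp0 was higher by 0.72 (limma adjusted p = 0.00387), although its feature used was not called. The transcripts that each feature reads were not looked up, and probe positions were not used here.

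In neonates against naive adults the 57 shared features gave 0 higher and 12 lower, where 8.56% of all features were called. Among the lower ones were bright features of Rps27 with Rps27rt (-0.79), Rpl37a with Mir682 (-0.42) and Rpl34 with Rpl34-ps1 (-0.41). Their limma adjusted p values were 0.00216, 0.0222 and 0.0338. The dimmer Rpl4 feature fell by 1.52 (limma adjusted p = 0.000667). Of the features of members, 10 formed 3 groups with identical values on every array, among them 6 of the 8 features of Rps12, so these are not separate measurements.

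**Figure D4:**
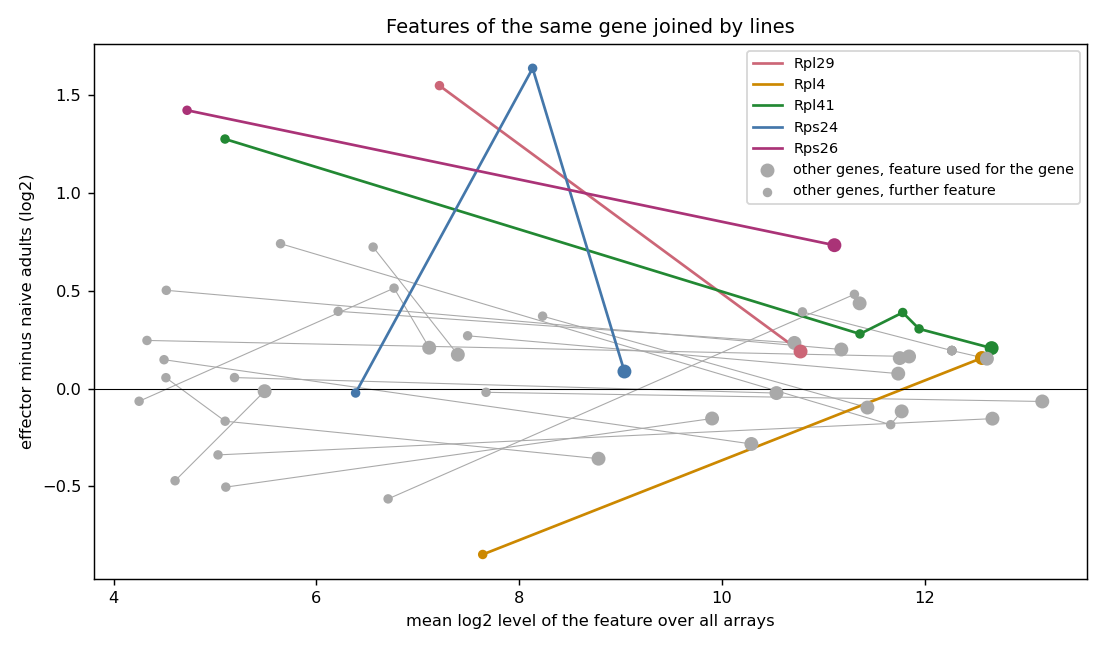
Effector minus naive adult log2 difference (y axis) against mean log2 level (x axis) of each tested feature for the 23 genes with at least 2 such features; lines join the features of a gene, large points are the features used. The second features of Rps24, Rpl29 and Rps26 lie above 1.4 while the dimmer feature of Rpl4 lies at -0.85.

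The genes that build and use the ribosome were taken from lists, to be read beside the 23.7% higher and 10.9% lower of all genes (43.8% of genes of the middle level class were called in either direction). Of 21 assembly and export factors tested, 18 were higher in effector than in naive adults and 0 lower, with a median of 0.85. Wdr12, of the large subunit processing complex, was higher by 1.61, Pno1, of small subunit assembly, by 1.47, and Nop2, an rRNA methyltransferase, by 1.23. Genes of RNA polymerase I transcription and Myc gave 8 higher and 1 lower of 14 (median 0.63), led by Taf1d at 1.64, Polr1e at 0.91 and Polr1c at 0.80. Initiation factors gave 23 higher and 2 lower of 31 (median 0.63), with Eif2s2 at 1.29, Eif1a at 1.26 and Eif2b1 at 1.25. Elongation factors gave 5 higher and 0 lower of 9 (median 0.37). Eef2, the translocation factor, was higher by 0.57 and Eef1e1, an elongation factor by name only, by 1.15. For 10 further transcripts known to carry a TOP tract the counts were 5 higher and 1 lower (median 0.38).

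The list of mTORC1 and its regulators gave 11 higher and 3 lower of 23 (median 0.30). Mtor was higher by 0.73, Sesn2, which restrains mTORC1, by 1.75, and Eif4ebp1, a substrate of the complex that represses initiation, by 1.40. The list of ribosome stress and p53 genes gave 4 higher and 1 lower of 9; Mdm2, the target of free Rpl5 and Rpl11, was higher by 0.81. Outside the name rule, Rpsa, a small subunit protein, was higher by 0.49 (limma adjusted p = 0.00641), and Fau, which encodes a small subunit protein fused to a ubiquitin-like one, differed by -0.22 (limma adjusted p = 0.112). Mitochondrial ribosomal proteins, a separate family encoded in the nucleus, gave 53 higher and 1 lower of 70 tested, with a median of 0.64. The median over the 63 cytosolic members was 0.15 and over all genes 0.03. In the middle level class alone it was 0.24 for cytosolic members and 0.23 for all genes. The mitochondrial genes were not split by level, so these medians are not matched for level.

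In neonates against naive adults 10.2% of all genes were called. Assembly factors gave 2 higher and 0 lower (Pno1 at 0.89 and Nmd3 at 0.77), RNA polymerase I and Myc 2 and 0, initiation factors 1 and 0 (Eif3a at 0.56), and elongation factors 1 and 0 (Eef2 at 0.57). The mTORC1 list gave 2 higher and 4 lower, with Sesn2 higher by 1.34 and Ddit4 lower (-0.89). Fau fell by 0.46 (limma adjusted p = 0.0323). Mitochondrial ribosomal proteins gave 0 higher and 2 lower (Mrps15 and Mrpl47), with a median of -0.04.

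Over the whole series, array medians over all features were 4.44 to 4.64. They were 4.56 to 4.64 on naive adult, 4.44 to 4.50 on effector and 4.50 to 4.63 on neonatal arrays. Every effector median thus lay below every naive adult median. Naive males and neonates correlated least within their group (0.911 to 0.914 and 0.904 to 0.925), effector adults most (0.962 to 0.974). All 12 ILC2 markers with a feature lay above the dim range in each group. Of the markers tested for other cell types, effector adults had lower T cell (3 of 7), endothelial (3 of 6), mast cell or basophil (2 of 5) and neutrophil (1 of 2) genes than naive adults. Of all genes 10.9% were lower, and in the dim class 799 were lower and 297 higher. In naive adults only 3 of 7 T cell, 1 of 6 endothelial and 2 of 6 mast cell or basophil markers lay above the dim range. That range ended at 5.46 in naive and at 4.63 in effector adults. The macrophage list gave 1 higher and 2 lower of 8 in effector against naive adults and the B cell list 1 and 1 of 3, while the epithelial, fibroblast and erythroid lists gave 0. In neonates against effector adults the calls were all higher, for T cell (3 of 7), B cell (2 of 3), mast cell or basophil (2 of 5), fibroblast (3 of 3), macrophage (1 of 8), endothelial (1 of 6) and epithelial (1 of 6) genes, with 0 for neutrophil and erythroid genes. Of all genes 5.93% were higher and 14.7% lower there. In neonates against naive adults 2 of 5 mast cell or basophil markers were higher, led by Cpa3 at 2.43, and of the epithelial list Sftpc was higher by 1.98. There 1 macrophage marker was higher, 1 B cell, 1 endothelial and 1 neutrophil marker were lower, the T cell list gave 1 higher and 1 lower, and the fibroblast and erythroid lists gave 0. Of all genes 6.04% were higher and 4.12% lower in that comparison. The mean level of the T cell list was 6.23 to 6.47 on naive adult, 5.68 to 5.99 on effector and 6.35 to 6.60 on neonatal arrays, and that of the endothelial list 4.67 to 5.64, 4.56 to 4.93 and 4.83 to 5.14. The mean level of the mast cell or basophil list was 5.70 to 5.81 on naive adult arrays, 5.27 to 6.17 on effector arrays and 6.11 to 6.92 on neonatal arrays, and none of 5 neutrophil markers lay above the dim range in any group. The part of such cells in the differences of the ribosomal protein genes was not tested. In bulk RNA fewer cells of a type and less RNA per cell cannot be told apart.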

How the data were processed

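The deposited table holds log2 levels that the authors made with Affymetrix Expression Console and RMA per the submitters' processing notes, with versions not given in the sources used here; RMA corrects background, applies quantile normalization across arrays and summarises probes. Per the labels' protocols, Trizol extraction and a Nugen Encore biotin kit preceded hybridisation. Such scaling removes any overall shift in RNA per cell, and precision is limited by having 3 arrays per group.

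Of 41345 features, 23521 had 1 gene symbol in the platform annotation. Features above their array's percentile 40 in at least 3 arrays were kept (28958), and the feature with the highest mean was used per gene, giving 16257 genes. A mean per group was fitted with limma 3.58.1 in R 4.3.3 (10 residual and 5.05 prior degrees of freedom). Sexes were weighted equally. Tests were two-sided with Benjamini-Hochberg adjustment, called at an adjusted p under 0.05. The fit was tested on simulated data.

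The members and lists were chosen with earlier results of these data known. Named members were the 8 largest called rises and falls in each comparison with naive adults, every paralog, every dim and stalk member and a set of well studied subunits; other members called are named with their values, chosen after these were seen. Of other lists, up to 3 called genes were named. Core genes without a feature of their own (19, Rpl13a, Rps27a and Rpl10 among them) were not analysed here. The labels do not state that replicate numbers pair samples, and the main fit held no pairing. Deviations of same-numbered arrays correlated between -0.11 and 0.0991, those of other-numbered arrays between -0.143 and 0.167. Such correlations cannot settle whether same-numbered samples shared an origin. Alternatives covered the filter, scaling, prior, array weights, replicate block, feature choice, a 2-fold minimum, only the arrays compared and leaving out each array. Leaving out the 3 least correlated arrays, the fit over features and the level classes were added after seeing the data.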

Additional observations from a re-analysis of the deposited data

Results flagged for a closer look

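Some features other than those used for the genes differed between effector and naive adults. Of all 28958 features tested, 28.4% were called there (16.2% higher). Some member features had identical values on every array and are not separate measurements. Of the features naming a member together with other symbols, 7 were higher in effector than in naive adults and 7 lower, of 57 tested. Of the features with 1 member symbol that were not used for their gene, 13 were higher and 2 lower of 38 tested. The features of Rps24, Rpl29, Rpl41 and Rpl4 described above belong to the second set.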

How the results depend on the processing

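Members called higher in effector than naive adults numbered 28 after centring each array and 2 with a 2-fold minimum (17 as reported). Members lower there (1 as reported) numbered 0 with a filter at percentile 60 or a 2-fold minimum, 3 after a further quantile normalization or when features of a gene were averaged, 4 with a trended and robust prior, and 2 with array weights. The replicate block also gave 2, and moved no other count of calls by over 1.5 times. The labels do not state whether replicate numbers pair the arrays. In neonates against naive adults, the higher count (2) was 0 with array weights, a 2-fold minimum or only the arrays compared, and 1 with the mean of features or without the 3 least correlated arrays; the lower count (3) was 14 with the trended prior, 1 with only the arrays compared, and 0 with array weights, a 2-fold minimum or without the 3 least correlated arrays. In neonates against effector adults, the lower count (15) was 24 after centring, 25 with the trended prior, 7 with array weights, 5 with a 2-fold minimum and 8 without the 3 least correlated arrays. Effector against naive females (4) gave 2 without a filter or with a 2-fold minimum, 7 after centring, 9 with array weights and 8 without those 3 arrays, and males (17) gave 7 with a 2-fold minimum. Leaving out 1 array at a time gave 1 to 2 lower members in effector adults, 1 to 2 higher in neonates than in naive adults, 0 to 1 higher and 7 to 16 lower in neonates than in effector adults, and 1 to 6 called in females. Of 2163 refits of named members, 69 lost a call and 22 gained one; no difference called in either fit changed sign, but some that were not called did. The causes were not tested. The shares of all genes tested that were called under these settings are not given here. The changed counts therefore do not show a change particular to the members. Background limits what the dimmest features can show.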
